A study of Mus musculus with 2 samples.

Results

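The 10 genes described here are regulators and markers of myeloid and dendritic cells, taken by name from a fixed list of Cebpa, Cebpb, Irf8, Irf4, Csf1r, Flt3, Itgax, Batf3, Siglech and Lyz2. They are 10 of the 21938 protein-coding genes outside the mitochondrial genome in the GENCODE annotation of mm10. Each was studied over its domain, the gene body with 20 kb on either side, which spanned from 41.5 kb at Cebpb to 110 kb at Flt3. DNase-seq, which maps where the nuclease DNase I can cut chromatin, was done on thymus tissue of male B6CASTF1/J mice, an F1 hybrid strain, aged 36 days, for which the labels give no treatment. The series has 1 group of 2 libraries, labelled replicate 1 and replicate 2 and called library 1 and library 2 below. The labels number the 2 males separately but give both libraries the same donor identifier, so it is not settled that they come from separate mice. Whole tissue was used, so a weak peak can come from few cells that are open or from many cells that are slightly open, and the 2 cannot be told apart. The files give no read counts, the depth is unknown, and with 1 group of 2 libraries no test was possible. All values below are therefore descriptions of each library.

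Myeloid cells and dendritic cells arise from bone marrow progenitors under a small set of transcription factors and growth factor receptors. C/EBPα and C/EBPβ drive granulocyte and macrophage genes, while IRF8, IRF4 and BATF3 direct the subsets of dendritic cells. CSF1R and FLT3 are the receptors through which macrophages and dendritic cell precursors receive their growth signals. In the thymus these cells are a small minority beside thymocytes, where dendritic cells present self antigens to developing T cells and macrophages clear dying thymocytes.

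The 2 libraries stood apart in cell type markers. Of 12 thymocyte genes, 2 had a promoter peak in library 1 and 12 in library 2, with a summed promoter signal of 8.29 and 84.5. Cd3d, Cd3e, Cd3g, Cd4, Cd8a and Cd8b1 had none in library 1, while Lck had one with 5.72 and Tcf7 one with 2.58 there. Over all protein-coding genes 63.1% had a promoter peak in library 1 and 60.1% in library 2. Of 10 pancreatic acinar genes, 9 had one in library 1 and 3 in library 2, with a summed signal of 55.01 and 11.9. Cela2a, Cela3b, Cpa1, Ctrb1, Pnlip and Ptf1a had none in library 2, and Amy2a5 had none in either library. Of the other cell types, 2 of 6 B cell genes were open in each library, 4 and 3 of 7 thymic epithelial genes, 1 and 2 of 4 endothelial genes, and 3 and 3 of 4 fibroblast genes. Library 1 goes against its label of thymus at 10 of the 12 thymocyte genes, and every result below is given for each library on its own. The part of these differences in the results below was not tested.

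**Figure D1:**
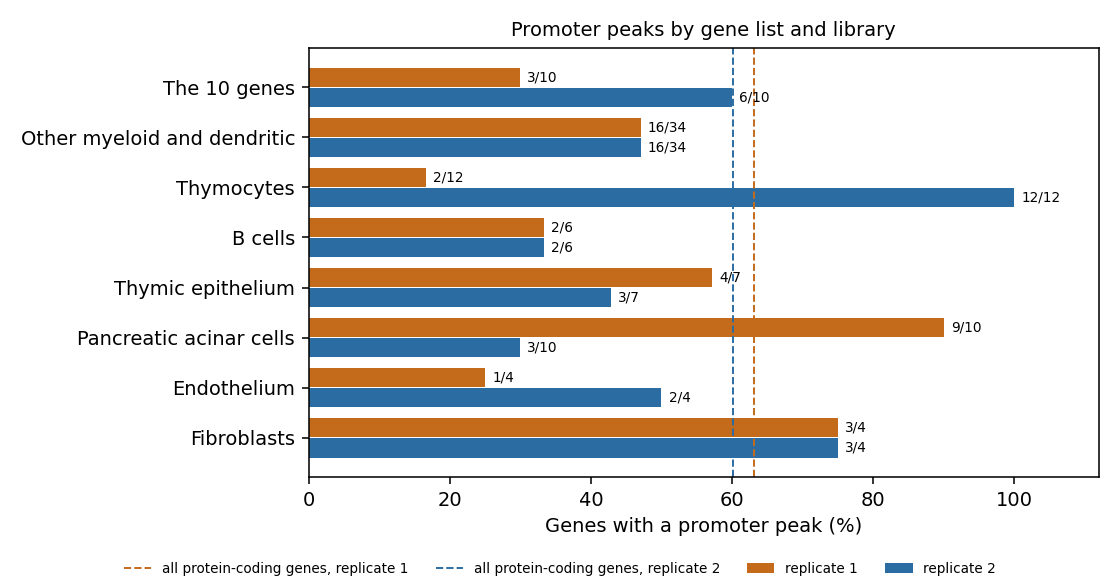
Share of genes with a promoter peak (x axis, %) in each list of genes (y axis), with 1 bar per library, the number of genes beside it and the share among all protein-coding genes as dashed lines. Thymocyte genes stand at 2 of 12 and 12 of 12, acinar genes at 9 of 10 and 3 of 10, and the 10 myeloid and dendritic genes at 3 and 6.

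The DNA at the start of 3 genes is shown first, because these had the 3 highest promoter signals of the 10 in library 2. The sequences are from the GRCm38 reference on the plus strand, which is also the strand of these genes, and run from the upstream edge of the open region to the base before the gene start. Capitals mark bases inside footprints, which are short stretches protected from cutting, in both libraries for Cebpa and Irf8 and in library 2 for Irf4.
Cebpa, chr7:35119141-35119292: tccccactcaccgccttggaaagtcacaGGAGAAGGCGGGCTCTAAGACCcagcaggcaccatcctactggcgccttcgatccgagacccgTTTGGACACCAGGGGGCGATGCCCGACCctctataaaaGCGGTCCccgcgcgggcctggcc
Irf8, chr8:120736181-120736357: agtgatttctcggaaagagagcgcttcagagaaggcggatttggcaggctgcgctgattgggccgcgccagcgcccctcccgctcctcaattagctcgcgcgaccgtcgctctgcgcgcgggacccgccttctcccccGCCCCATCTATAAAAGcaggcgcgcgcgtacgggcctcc
Irf4, chr13:30749081-30749225: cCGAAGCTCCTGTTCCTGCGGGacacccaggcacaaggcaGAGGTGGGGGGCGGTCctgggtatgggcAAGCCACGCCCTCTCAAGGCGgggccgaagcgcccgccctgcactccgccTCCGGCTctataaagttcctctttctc
Each of the 3 holds the letters TATAAA, a match to the TATA box at which the basal transcription machinery assembles. The match begins 30 bases before the gene start at Cebpa, 31 at Irf8 and 19 at Irf4. Looked for after these sequences had been seen, TATAAA on the gene's strand within the last 50 bases before the gene start was found at 3 of the 10 genes (30.0%) and at 712 of the 21938 protein-coding genes (3.25%). At Irf8 the match lay inside a footprint of both libraries. At Cebpa the footprints shared by both libraries lay on either side of it, and in library 1 a single footprint of 45 bp ran across it. The reference is the C57BL/6J genome, and differences on the other parental allele are not seen.

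Promoters of 3 of the 10 genes were open in library 1 and of 6 in library 2. A gene counted as open at its promoter where a peak lay no more than 1 kb from any of its transcript starts, in the shorter of the 2 peak lists deposited for each library. In library 1, 3 of the 10 promoters were open, against 63.1% of all protein-coding genes. In library 2, 6 of 10 were open, against 60.1%. The 3 of library 1, Cebpa, Cebpb and Irf8, were also open in library 2, so 3 of 10 were open in both libraries against 56.7% of all genes. Open in library 2 alone were 3, Irf4, Batf3 and Lyz2, against 3.37% of all genes, and none was open in library 1 alone, against 6.41%. Csf1r, Flt3, Itgax and Siglech were open in neither library, as were 33.5% of all genes. With the longer peak lists 6 and 7 of the 10 promoters were open, against 67.2% and 64.7% of all genes.

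**Figure D2:**
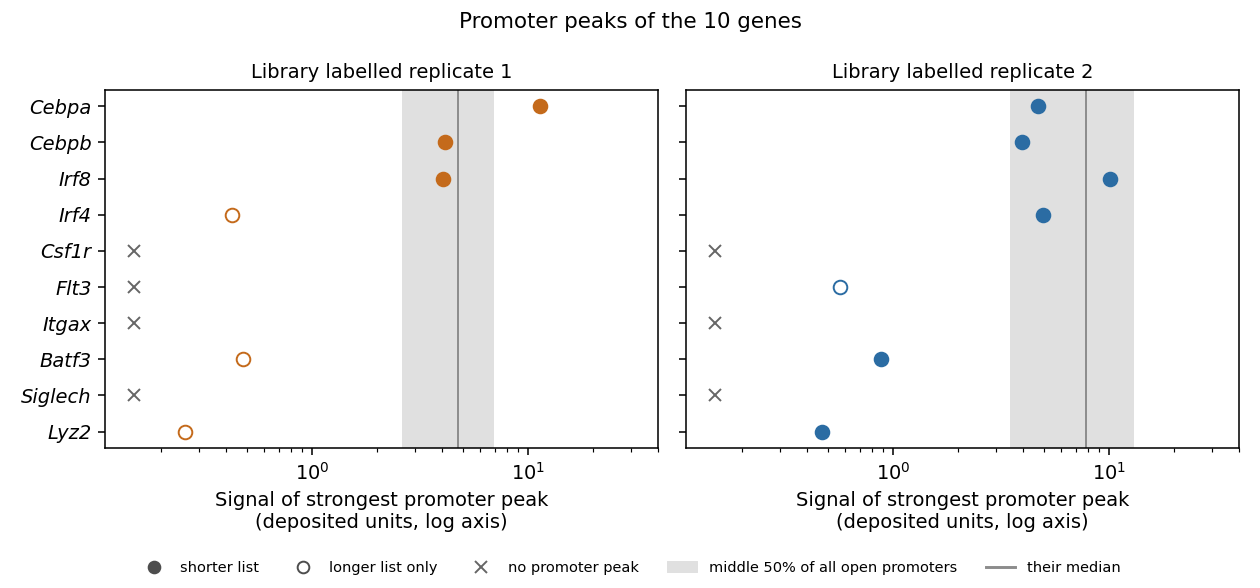
Signal of the strongest promoter peak (x axis, deposited units, log scale) of each gene (y axis) in each library, with filled circles for the shorter list, open circles for the longer list alone crosses for no peak, and a grey band and line for the middle 50% and median of all open promoters. Cebpa leads library 1 at 11.3 and Irf8 leads library 2 at 10.1, and 3 of the 10 genes have no promoter peak in any list.

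No source used here states a scale for the signal, so it is read by its rank within its own library. Where values of the 2 libraries are set side by side, the yardstick is the ratio of library 2 to library 1 over all 35217 regions with a peak in both. That ratio had a median of 1.34 and ran from 0.378 at the 5th percentile to 3.32 at the 95th.

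Cebpa (ENSMUSG00000034957.10, chr7:35119293-35121928, plus strand) encodes C/EBPα, which starts the myeloid programme in progenitors and also acts in liver and fat. Its strongest promoter peak had a signal of 11.3 in library 1 and 4.68 in library 2. That was the 97.5th percentile of open promoters in library 1 and the 31.4th in library 2. The ratio of 0.412 lay at percentile 5.97 of shared regions, so this promoter was among the regions most shifted towards library 1. The second promoter region, centred at -0.922 kb from the gene start, had 3.35 and 0.848, with a ratio at the 1.98th percentile. Library 1 also had peaks inside the single coding exon at 0.351 and 0.892 kb with signals of 1.78 and 1.51, and library 2 had none. At the first of these the deposited table of false discovery rates (FDR) of the cut rate still listed every base of the region in library 2, down to 8.24e-06. Around the gene start the 2 libraries shared footprints centred at -176, -106, -39 and 16 bp in library 1, and the widest was 45 bp in library 1 and 29 bp in library 2.

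Cebpb (ENSMUSG00000056501.3, chr2:167688915-167690418, plus strand) encodes C/EBPβ, which is induced in macrophages and granulocytes by inflammation. Its strongest promoter peak had 4.10 in library 1 and 3.96 in library 2, at the 41.9th and 27.5th percentile of open promoters. The region over the gene start had 4.10 and 3.17, and the region in the coding exon 0.826 kb downstream had 2.91 and 1.63, with ratios at the 21.5th and 11.6th percentile. Both ratios were thus, like those of Cebpa, below the median of shared regions. This did not extend to the distal regions of Cebpb open in both libraries, whose ratios lay at percentiles 82.3, 48.5 and 47.8. The strongest promoter peak of library 2 ran from 167688621 to 167688800, up to the edge of the region over the gene start, and had no partner in the list of library 1. The FDR table of library 1 nevertheless listed all 180 of its bases at or under 0.001, and the 2 libraries shared footprints there.

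Irf8 (ENSMUSG00000041515.10, chr8:120736358-120756694, plus strand) encodes the factor that sets the fate of monocytes, of conventional type 1 dendritic cells and of plasmacytoid dendritic cells, and it also acts in B cells. Its promoter peak had 4.03 in library 1 and 10.1 in library 2, at the 41.1th and 61.5th percentile of open promoters. The ratio of 2.50 lay at the 88.4th percentile of shared regions. A second shared region of 740 bp, centred 15.7 kb into the gene over the starts of shorter transcripts, had 0.886 and 3.03 with a ratio at the 95.4th percentile. The shared promoter regions of Irf8 were thus shifted the other way from those of Cebpa and Cebpb, towards library 2. Centred 0.333 kb past the gene start library 1 had a further peak with 1.74, where library 2 had only 10 bases listed in its FDR table.

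Irf4 (ENSMUSG00000021356.10, chr13:30749226-30766976, plus strand) encodes a relative of IRF8 that serves conventional type 2 dendritic cells and is also induced by antigen receptors in T and B cells. Its promoter had a peak with 4.95 in library 2, at the 33.2th percentile of open promoters, and none in the shorter list of library 1. It fell just outside that list: the longer list of library 1 gave 0.423, and the lowest FDR there was 0.00102, while every peak of the shorter lists in the 10 domains held bases at or under 0.001. No more than 1 kb from the gene 5′ end, 3 of the 10 genes in library 1 and 6 in library 2 had bases at or under 0.001, against 59.4% and 56.1% of all protein-coding genes. Both libraries had footprints near -132 and at -67 bp, the latter 19 bp wide in library 1 and 21 bp in library 2. The footprint at -67 held a match to the CTCF consensus in both.

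Batf3 (ENSMUSG00000026630.9, chr1:191097847-191108945, plus strand), whose product works with IRF8 in conventional type 1 dendritic cells, had a weak promoter peak in library 2 alone. Its signal was 0.878, at the 6.01th percentile of open promoters. It was centred 0.595 kb past the gene start in an untranslated exon, and covered another annotated transcript start of Batf3. The longer list of library 1 gave a different peak, at 0.143 kb, with 0.478. No base at the library 2 peak was listed in the FDR table of library 1.

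The 2 growth factor receptor genes had no promoter peak in the shorter list of either library. Csf1r (ENSMUSG00000024621.16, chr18:61100598-61132149, plus strand) encodes the receptor that keeps macrophages alive. Its domain held no peak, no footprint and no peak of the longer list in library 1. In library 2 it held 1 peak of 58 bp with a signal of 0.470, at the 4.28th percentile of all peaks. That peak lay in the second intron of the transcript Csf1r-201, 3098 bp past its start. The second intron of Csf1r is known to hold FIRE, an enhancer needed for its expression in several macrophage populations, and whether the peak is that element was not tested. Flt3 (ENSMUSG00000042817.15, chr5:147330741-147400489, minus strand) encodes the receptor on dendritic cell precursors and early lymphoid progenitors. Around its start library 1 had nothing listed at an FDR under 0.05, and library 2 had 180 bases, with a lowest FDR of 0.0111 and a peak of 0.570 in the longer list alone.

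The 3 genes for surface and effector proteins were closed or nearly so. Itgax (ENSMUSG00000030789.9, chr7:128129547-128150657, plus strand), which encodes the dendritic cell integrin CD11c, had no peak at its promoter or distally in any list. Siglech (ENSMUSG00000051504.18, chr7:55768178-55778925, plus strand), a receptor of plasmacytoid dendritic cells, had none at its promoter. The only strong peak in its domain, with 5.83 and 12.4, was the promoter of the neighbouring gene Tubgcp5. Lyz2 (ENSMUSG00000069516.8, chr10:117277331-117282321, minus strand) encodes the lysozyme of macrophages and neutrophils. In library 2 it had a promoter peak of 76 bp with 0.470, at the 1.43th percentile of open promoters, and a peak of 0.663 in the second intron. In library 1 the longer list gave 0.259 at its promoter, with a lowest FDR of 0.00414.

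Ordered by signal, library 1 ran Cebpa, Cebpb and Irf8, with Cebpb and Irf8 close together, and library 2 ran Irf8, Irf4, Cebpa, Cebpb, Batf3 and Lyz2. The median signal of the open promoters among the 10 was 4.10 in library 1 and 4.32 in library 2, against 4.75 and 7.84 over all open promoters. Their open promoters lay below the median of their library except for Cebpa in library 1 and Irf8 in library 2.

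Other genes of the same cell types were open at equal numbers in the 2 libraries. Of 34 further myeloid and dendritic cell genes, 16 (47.1%) had an open promoter in library 1 and 16 (47.1%) in library 2, against 63.1% and 60.1% of all protein-coding genes. Both libraries had 14 of them, against 56.7% of all genes, and 16 were open in neither, against 33.5%. Strongest in library 1 were Id2 with 7.88, a regulator of dendritic and innate lymphoid cells, Cebpd with 6.66 and Bst2 with 5.69. In library 2 they were Id2 with 13.2, Klf4 with 10.4 and Tcf4 with 10.2, the last a regulator of plasmacytoid dendritic cells. Open in 1 library alone were Cd68 and Cx3cr1 of macrophages, each with 1.38 in library 1, and Spi1 with 2.87 and Irf5 with 1.46 in library 2. The longer list of library 1 gave 0.416 for Spi1 and 0.666 for Irf5, and that of library 2 gave none for Cd68 or Cx3cr1. Spi1 encodes PU.1, the regulator shared by all myeloid cells. Open in neither were, by alphabet, Adgre1, Cd209a and Cebpe. Many of the 34 act in other cells too, so an open promoter here does not mark a myeloid cell.

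Away from promoters, library 2 had 28 distal peaks in the 10 domains and library 1 had 17, an order that turned with flanks of 100 kb, at 84 and 93. A distal peak lay beyond 1 kb of every annotated transcript start. The domains of 5 genes held at least 1 in library 1, against 70.1% of all protein-coding genes, and those of 7 in library 2, against 61.7%. The median per domain was 0.5 and 1.5, against 2 and 1 over all genes. The counts were uneven. In library 1 Cebpb had 9, Flt3 had 4, Batf3 had 2, and Cebpa and Irf8 had 1 each. In library 2 Flt3 had 10, Irf4 had 8, Cebpb had 4, Irf8 and Batf3 had 2 each, and Csf1r and Lyz2 had 1 each. As many distal peaks as Cebpb in library 1, or more, were found at 6.15% of all genes, and for Irf4 and Flt3 in library 2 the shares were 4.26% and 2.46%. Flt3 has a long domain of 110 kb, and per 100 kb its count in library 2 was 9.11, against 13.9 at Irf4.

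**Figure D3:**
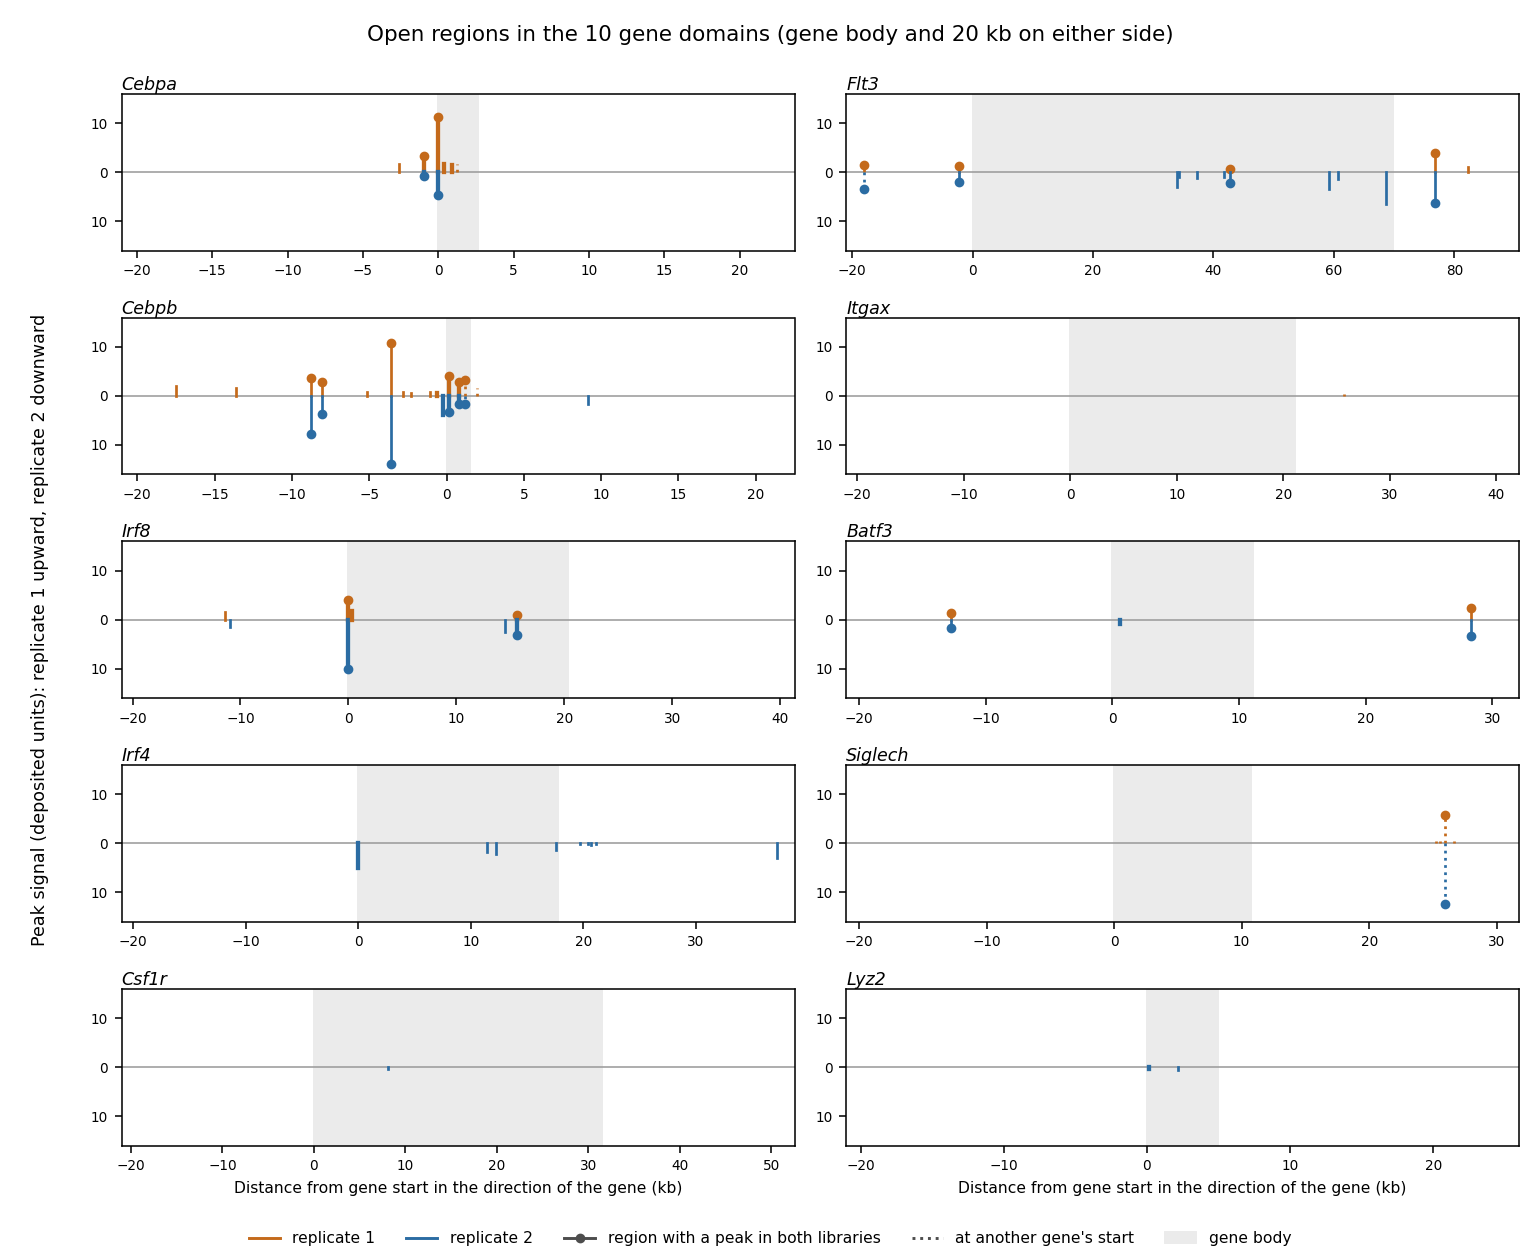
Peak signal (y axis, deposited units, library 1 upward and library 2 downward) against distance from the gene start along the gene (x axis, kb) in each of the 10 domains, with circles for regions that have a peak in both libraries, dotted stems for peaks at another gene's start and grey shading for the gene body. On its upstream side Cebpb has more peaks upward than downward, while its shared distal regions there reach further downward. Irf4 and the body of Flt3 are filled downward, Itgax, Csf1r and Lyz2 are nearly empty, and Siglech holds only peaks at the start of Tubgcp5.

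At Cebpb the distal peaks of library 1 lay within introns of Tmem189. The strongest, centred at -3.58 kb from the gene start, had 10.7 in library 1 and 13.9 in library 2, the highest signal of any peak in the 10 domains in library 2. It was followed by regions at -8.77 kb with 3.57 and 7.85 and at -8.05 kb with 2.82 and 3.71. The other 6 distal peaks of library 1 there were weaker, from 0.604 to 1.94, and the 1 of library 2 alone, 9.18 kb downstream, had 1.64.

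At Irf4 none of the 8 distal peaks of library 2 overlapped a peak of library 1, as 49.1% of all distal peaks of library 2 did. None of the bases of these 8 peaks was listed under an FDR of 0.05 in library 1. The strongest, with 2.96, lay 37.2 kb past the gene start in a noncoding exon of Gm29675. Regions in the last introns and exons of the gene, 11.4, 12.2 and 17.6 kb past the start, had 1.86, 2.19 and 1.36. A group of 4 peaks between 19.7 and 21.1 kb past the start had signals of 0.116 to 0.262, below the 1st percentile of the library's peaks. The Irf4 count thus rests in part on very weak peaks.

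At Flt3 the regions shared by both libraries were at -2.22 kb from the gene start, in the tenth intron at 42.7 kb, and past the end of the gene at 76.8 kb. Their signals were 1.26 and 2.01, 0.588 and 2.27, and 3.94 and 6.26. The other 7 peaks of library 2 lay within the gene, 4 of them between 33.9 and 41.8 kb past the start. The strongest, with 6.56, lay in the last intron at 68.7 kb, and the longer list of library 1 gave 0.604 there. At Batf3 both distal peaks were shared, at -12.7 kb with 1.28 and 1.66 and 28.3 kb past the start with 2.47 and 3.27. At Irf8 library 1 had a distal peak of 1.47 at -11.46 kb and library 2 had one of 1.59 at -10.99 kb, next to each other but not overlapping. At the latter the longer list of library 1 gave 0.659, and 18 bases had an FDR at or under 0.001 in library 1. Library 2 also had a distal peak of 2.55 in the sixth intron of Irf8-201.

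Of the distal peaks in the 10 domains, 8 of 17 (47.1%, exact binomial 95% interval 23.0 to 72.2) in library 1 and 8 of 28 (28.6%, 13.2 to 48.7) in library 2 overlapped a peak of the other library. Over all distal peaks the shares were 32.3% and 49.1%. The intervals cover counting of peaks alone, and neighbouring peaks are not independent. Of the 20 distal regions of library 2 alone, 4 had any base listed in the FDR table of library 1, and 1 had bases at or under 0.001 there. Of the 9 of library 1 alone, 2 had one listed in library 2, and none at or under 0.001. The same count was not made over all distal regions of 1 library, so these are not read as particular to the 10 domains.

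The distal regions open in both libraries mostly held a match to the consensus of CTCF, the protein that anchors chromatin loops and domain borders. The letters searched on both strands were CC, any 3 bases, AG, any 2 bases and GGC. Of the 8 shared distal regions 7 held a match, and in all 7 it lay whole inside a footprint in library 1 and in library 2. Of all 16653 shared distal regions in the genome 48.3% held a match and 38.04% held one inside footprints of both libraries. Among the regions open in 1 library alone, 2 of 9 in library 1 and 1 of 20 in library 2 held a match, against 10.4% of 34630 and 12.8% of 17326 in the genome. A match inside footprints of both libraries was held by 1 of the 9 (11.1%) and 0 of the 20, against 0.407% and 0.802% in the genome. That 1 region lay at -13.6 kb from Cebpb, where the longer list of library 2 gave a peak of 1.37. The 8 regions are few and lie near 3 genes, so their share is not called particular to them. The 6 matches at Cebpb and Flt3 are printed in capitals with 6 bases on either side, each read on the strand of the match, named by the gene and the distance of the region from its start.
Cebpb -8.774 kb, chr2:167680122-167680145, minus strand: gagctaCCGCCAGGGGGCgcttcc
Cebpb -8.054 kb, chr2:167680846-167680869, plus strand: cagaggCCACAAGAGGGCatcgga
Cebpb -3.584 kb, chr2:167685318-167685341, plus strand: gccctgCCACGAGATGGCagcatg
Flt3 76.808 kb, chr5:147323685-147323708, minus strand: attgtaCCAGCAGGGGGCgcccga
Flt3 42.748 kb, chr5:147357740-147357763, minus strand: caaaggCCACAAGAGGGCgtctga
Flt3 -2.222 kb, chr5:147402693-147402716, plus strand: cggaggCCAGAAGGGGGCactgga
These 6 lie in introns or between genes.

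The strongest distal region, that of Cebpb, and the 1 shared distal region without a match to these letters, that of Batf3, are given whole on the plus strand, with footprints of both libraries in capitals. The strongest region of Flt3 in library 2 alone is given with the footprints of that library in capitals.
Cebpb, chr2:167685241-167685420: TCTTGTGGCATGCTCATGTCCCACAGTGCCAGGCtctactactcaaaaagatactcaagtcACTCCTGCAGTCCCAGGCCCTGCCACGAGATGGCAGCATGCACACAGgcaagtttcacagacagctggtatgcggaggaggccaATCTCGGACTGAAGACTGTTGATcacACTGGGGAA
Batf3, chr1:191126041-191126240: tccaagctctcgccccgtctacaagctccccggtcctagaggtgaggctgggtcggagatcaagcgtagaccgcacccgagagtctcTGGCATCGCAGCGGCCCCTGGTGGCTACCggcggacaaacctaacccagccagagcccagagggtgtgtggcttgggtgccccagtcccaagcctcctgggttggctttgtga
Flt3, chr5:147331681-147331820: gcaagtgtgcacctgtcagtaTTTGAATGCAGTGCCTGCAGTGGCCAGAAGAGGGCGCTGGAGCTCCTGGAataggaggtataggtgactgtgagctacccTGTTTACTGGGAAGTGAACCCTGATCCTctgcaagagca
In the region of Cebpb 113 of the 180 bases lay in footprints of both libraries. In that of Batf3 a single stretch of 29 bases did, with the same ends in both. The region of Flt3 held a CTCF consensus match in a footprint of 50 bp in library 2, and library 1 had 118 of its bases listed in the FDR table, down to 0.00650.

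**Figure D4:**
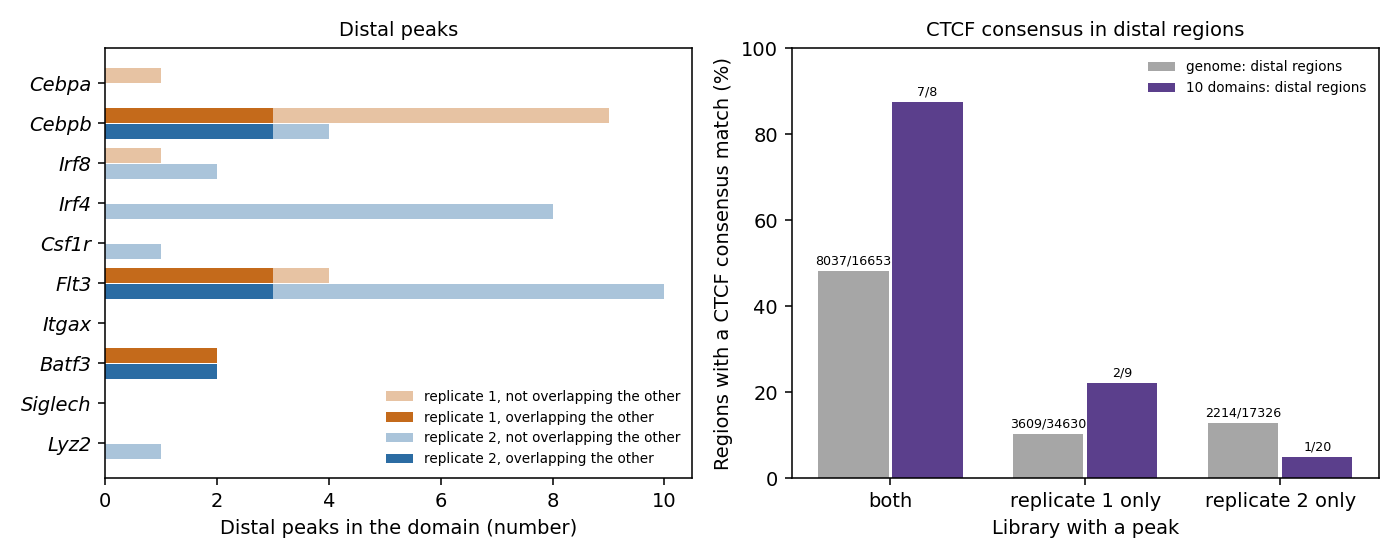
Left, number of distal peaks (x axis) in each domain (y axis) by library, with the darker part overlapping a peak of the other library. Right, share of distal regions with a CTCF consensus match (y axis, %) among regions open in both libraries or in 1 alone (x axis), for the genome and the 10 domains, with counts above the bars, where 7 of 8 shared regions hold a match.

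Matches to the consensus sequences of the myeloid factors were found in few peaks, both in the 10 domains and over all peaks. Of 12 consensus sequences searched, those that bear on these factors are given, counted in windows of 200 bp centred on each of the 37 and 42 peaks in the 10 domains, on both strands, beside all 85367 and 60644 peaks. The C/EBP letters TTGCNNAA were found in 3 windows (8.11%, against 7.77% of all) in library 1 and in 2 (4.76%, against 6.22%) in library 2. The PU.1 letters AGGAAGTG were found in 2 (5.41%, against 2.05%) and 1 (2.38%, against 4.95%). The IRF consensus, GAAA and GAAA 2 bases apart, was found in 4 (10.8%, against 1.85%) and 0 (against 1.90%). Overlapping peaks at the promoter of A530013C23Rik, next to Cebpb, gave both PU.1 windows of library 1 and 2 of its 4 IRF windows, so these pairs hold 1 PU.1 and 1 IRF match. The other 2 IRF windows were at Irf8. The match in its shared region at 15.7 kb lay outside the 60 bp peak of library 1 and inside the 740 bp peak of library 2. The counts of 4 and 0 thus depend on the windows. The composite of ETS and IRF, GGAA and GAAA 2 bases apart, was found in no window. In whole regions, beyond the windows, it was found once, with a further C/EBP match, in the 760 bp region of library 1 at the start of A530013C23Rik. An IRF match also lay in the region of Cebpa at -0.922 kb, inside peaks of both libraries. A PU.1 match lay in the region of Irf4 at 37.2 kb. No match to any of these 4, in windows or whole regions, lay whole inside a footprint in either library, where 0.0433% to 0.522% of all windows had one. The AP-1 and BATF letters TGANTCA were found in 1 window (2.70%, against 5.66%) in library 1 and in 2 (4.76%, against 4.79%) in library 2. None of these lay whole inside a footprint. The RUNX letters TGTGGT lay inside a footprint in 1 window in library 1 and in 2 in library 2, all at Flt3, against 1.52% and 2.89% of all windows. These are matches of letters and not sites of binding.

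Footprints in the 10 domains numbered 150 in library 1 and 193 in library 2. Of these 97 (64.7%) and 138 (71.5%) lay in peaks of the same library, against 74.0% and 69.5% of all footprints. At least 1 was found at 8 of the 10 genes in library 1, against 83.3% of all protein-coding genes, and at 9 in library 2, against 80.9%. The median per domain was 6.5 and 8, against 18 and 16 over all genes. They were spread as the peaks were, with 72 at Cebpb, 25 at Cebpa, 18 at Flt3 and 17 at Irf8 in library 1, and 56 at Flt3, 47 at Irf4, 34 at Cebpb and 27 at Irf8 in library 2. Csf1r and Lyz2 had 3 each in library 2 and none in library 1, and Itgax had 3 in library 1 and none in library 2. Of the footprints 55 of library 1 (36.7%) and 50 of library 2 (25.9%) overlapped a footprint of the other library, against 35.1% and 39.4% of all footprints. Within 500 bp of the gene start the widest footprints shared by both libraries were 45 and 29 bp at Cebpa and 20 and 26 bp at Irf8, in each case at the same site. At Cebpb the widest were at different sites, 24 bp at 243 bp past the start in library 1 and 34 bp at -152 bp in library 2. A distal footprint of 49 bp at Cebpb, in the region at -8.77 kb, had the same ends in both libraries.

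**Figure D5:**
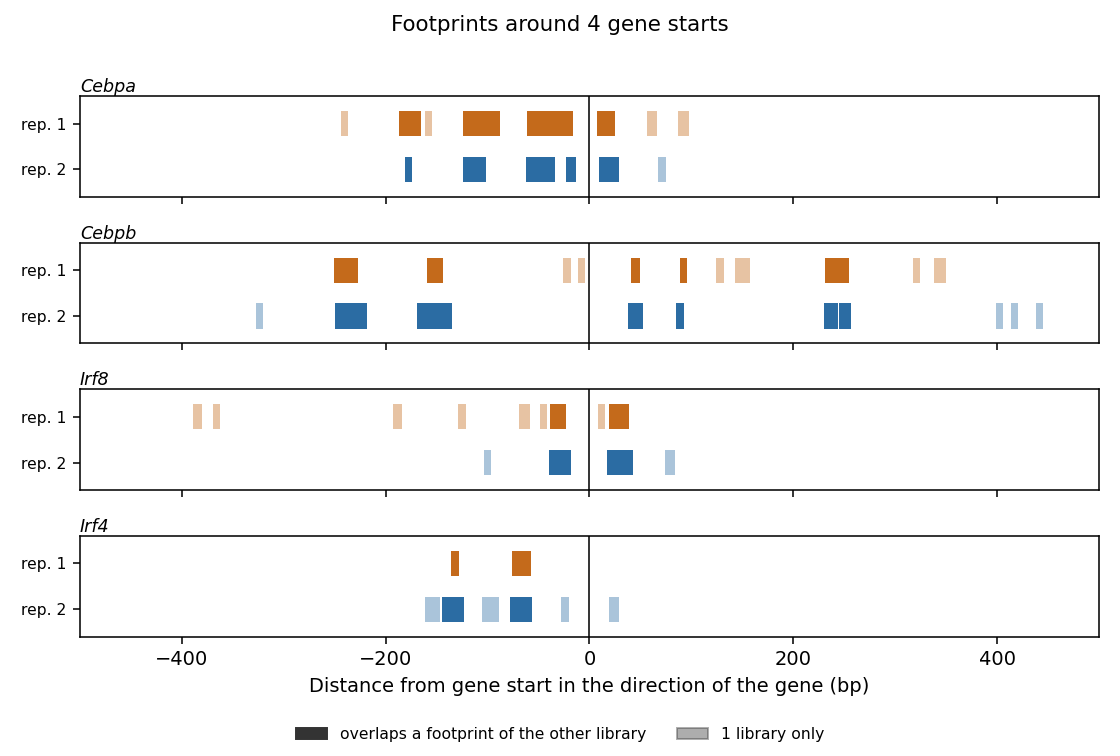
Footprints within 500 bp of the gene start (x axis, bp along the gene) at Cebpa, Cebpb, Irf8 and Irf4, with 1 row per library and full colour where a footprint overlaps one of the other library. Both libraries share the footprints that flank the starts of Cebpa and Irf8, and at Irf4 library 1 has 2 footprints and library 2 has 6.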

How the data were processed

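DNase-seq of 2 thymus libraries (1 group) was analysed from deposited lists on mm10, made per library from its alignment per the deposited notes. The authors' peak lists give a signal per peak, their deposited tables a q-value (FDR of the cut rate, only under 0.05) per interval, and the deposited footprint lists a score of 0.01 throughout, used for position only. Not given in the sources used here were aligner, callers, thresholds and signal scaling. Depth is unknown. The shorter list of each library (85367 and 60644 peaks) was the main one, the longer (126824 and 88164) an alternative. In the shorter lists 2.79% and 1.89% of peaks overlap a neighbour and were counted separately. Genes and 132629 transcript starts are from GENCODE vM21, sequence from RefSeq GRCm38.p6, whose chromosome ends no peak passed. Overlapping peaks (1 bp) were merged into regions. Python 3.11.15, pandas 2.3.3 and pysam 0.24.0 were used, and interval code was tested on simulated data. No test was run. Named are all 10 genes, and of the other myeloid genes the 3 strongest per library, those open in 1 library and the first 3 by alphabet closed in both. TATAAA was searched after the promoter sequences had been seen. The members and lists were chosen with earlier results of these data known. 1 matched sequence is not reported here.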

Additional observations from a re-analysis of the deposited data

How the results depend on the processing

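Of the 10 genes, 3 had an open promoter in both libraries, and 3 to 4 did with windows of 500 or 2500 bp, the gene 5′ end alone or the stronger 50% of peaks. With the longer lists 6 did, and leaving out 1 library gave 3 (library 1 alone) to 6 (library 2 alone). The count of 14 of 34 further myeloid genes stayed between 11 and 17 under every alternative tried. The 17 distal peaks of library 1 became 7 with 5 kb flanks, 93 with 100 kb flanks, 33 with the longer list and 10 with the stronger 50% of peaks. The 28 of library 2 became 84 with 100 kb flanks and 14 with the stronger 50%. Library 1 thus had more distal peaks than library 2 with 100 kb flanks and fewer with the other settings. The 150 footprints of library 1 became 650 with 100 kb flanks and 97 within peaks, and the 193 of library 2 became 594 with 100 kb flanks. Wider flanks and longer lists hold more sequence or peaks by construction. The shares of shared distal peaks, 47.1% in library 1 and 28.6% in library 2, became 33.3% and 36.9% with 100 kb flanks. Their order thus turned there and held under the other settings. All stayed within their intervals, but these are wide and the settings reuse many of the same peaks, so this is no support for the shares. No paired analysis was possible because the series has 1 group.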

Other observations

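Beyond the 20 kb flanks, between 20 and 100 kb from the 10 genes, 23 distal regions were open in both libraries, 53 in library 1 alone and 32 in library 2 alone. A CTCF consensus match inside footprints of both libraries was found in 7 of the 23 (30.4%) and in none of the 53 or the 32. Over all distal regions in the genome the shares were 38.04%, 0.407% and 0.802%. Around Irf8 there were 6 shared regions. The strongest lay at -57.7 and -52.6 kb from its start with signals of 4.36 and 6.40, and of 4.39 and 5.85, in libraries 1 and 2. At Csf1r, whose own domain was nearly closed, 2 shared regions lay at -60.6 and -32.0 kb with 2.10 and 3.03, and with 4.85 and 5.38, and both held such a CTCF match. At Irf4 no region of this range was shared, with 1 in library 1 and 5 in library 2.

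At Cebpa 3 regions of this range were shared. The strongest lay 50.3 kb past the gene start with 5.85 and 4.63. Library 1 alone had 4 more, at 24.8, 27.2, 44.5 and 57.9 kb past the start with 2.67, 0.909, 3.27 and 1.15, and library 2 had none of its own. No distal peak of the shorter lists lay between 27.2 and 44.5 kb, the stretch that holds the known myeloid enhancer of Cebpa. The pancreatic acinar and thymocyte markers also differ between the 2 libraries. With 2 libraries their part in these 4 peaks cannot be told apart from that of any other difference, and it was not tested.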
